A study of Homo sapiens with 27 samples.

Results

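A375 and A2058 are human melanoma cell lines that carry mutant BRAF, the kinase that drives the ERK pathway in many melanomas. The comparison described here sets 3 A375 libraries against 3 A2058 libraries, all from cells without knockdown, and takes in the 12811 of 26004 genes that reached an FPKM of at least 1 in 3 of these 6 libraries. FPKM is a read level per length of gene, here scaled by the authors across libraries. The wider series holds 27 RNA-seq libraries of A375, A2058 and SKMEL2 cells, 9 per line. Each line has 3 controls and 6 libraries in which the deacylase SIRT5 was knocked down.

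Every control culture carried a non-silencing hairpin, delivered by lentivirus with polybrene at 8 µg/ml, was kept in puromycin at 1 µg/ml and was lysed 96 h after infection. The controls are therefore infected and drug-selected cells rather than untouched ones, and this holds for both lines alike. The labels name separate wells, and nothing states that the 3 libraries of a line came from independent cultures. The p-values measure the spread between these libraries, which may be technical. The sample numbers of the 2 lines lie in separate ranges, so a difference between the lines and a difference between their library preparations cannot be told apart. In RNA from whole cultures, fewer cells with a transcript and less of it per cell cannot be told apart either.

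Depth differed between the lines. The A2058 controls held 29.3 to 42.1 M assigned reads and the A375 controls 7.28 to 16.3 M, with A375 replicate 2 the shallowest, the sample for which the labels report a truncated raw file. Of the 12 melanocyte lineage markers all 12 were tested, 10 of them called higher in A2058. The other 2, SOX10 and S100A1, were called higher in A375. Over all genes 39.3% were called each way, by the rule given below. Several of these markers, such as DCT and TYR, are counted again among the pigment genes. Of the keratinocyte markers 3 were tested. KRT14 and KRT15 were called and at least 4-fold higher in A375, and KRT10 was not called. Among markers of other cell types, keratinocyte markers summed to an FPKM of 24.8 to 33.5 per A375 library and 19.5 to 22.1 per A2058 library, most of it KRT10. Fibroblast markers summed to 2.76 to 3.32 and 15.0 to 17.2, endothelial markers to 2.21 to 3.22 and 1.49 to 1.91, and leukocyte markers to 11.6 to 14.5 and 2.55 to 4.08. The leukocyte sum was mostly LYZ, at 11.7 ± 1.07 in A375 and 2.02 ± 0.3204 in A2058, while PTPRC, the pan-leukocyte antigen CD45, stood at 0.0124 ± 0.00549 and 0.0303 ± 0.00391.

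Melanocytes arise from the neural crest. Their identity is held by the transcription factors SOX10, PAX3 and MITF, and MITF switches on the enzymes that make melanin and the proteins that build the melanosome. Melanoma cells can keep this pigmented program or lose it, and those that lose it often carry more of receptors such as AXL and of mesenchymal or matrix genes.

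Differences are limma estimates on the log2(FPKM + 0.5) scale, A375 minus A2058, so that a positive value means a higher level in A375. This scale understates the difference of genes with low FPKM. A gene is called when its adjusted p, after Benjamini-Hochberg adjustment over the genes tested, is under 0.05. By this rule 10079 genes were called, 78.7% of those tested, with 5038 (39.3%) higher in A375 and 5041 (39.3%) higher in A2058. The libraries of the lines did not overlap for 10364 genes, or 80.9%. A size was therefore asked for as well, an estimate of at least 2 in either direction, which is 4-fold on this scale. Counts of genes at least 4-fold apart use this estimate throughout, and a ratio of mean FPKM can be larger. Of the genes tested, 550 (4.29%) were called and at least 4-fold higher in A375, and 504 (3.93%) were called and at least 4-fold higher in A2058. The median difference over all genes tested was -0.005. Each list count below stands beside the share over all genes, 39.3% called each way, and no test sets a list against it. Levels are FPKM throughout, given for libraries 1, 2 and 3 of a line in that order or as mean ± SD (n = 3).

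The filter let in genes of both kinds. An FPKM of at least 1 in all 6 libraries was reached by 10135 genes, while 807 passed only through the 3 A375 libraries and 919 only through the 3 A2058 libraries, and those had to differ. The list counts below include such genes. The gene just inside the filter, AL589765.4, reached an FPKM of 1.00 in the last of the 3 libraries that counted, and the gene just outside, AC116914.2, one of 0.999.

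A trend with base composition ran through the comparison. In the fifth of genes with the lowest GC content, with a median of 38.1%, the median difference was -0.60, and in the fifth with the highest, 61.3%, it was 0.58. Its part in any one result was not tested, but each list below was recounted with the trend in GC and length removed, and the new counts are given for the 6 lists whose counts for A375 and A2058 shifted by 5 or more in sum, and for the ERK outputs.

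**Figure D1:**
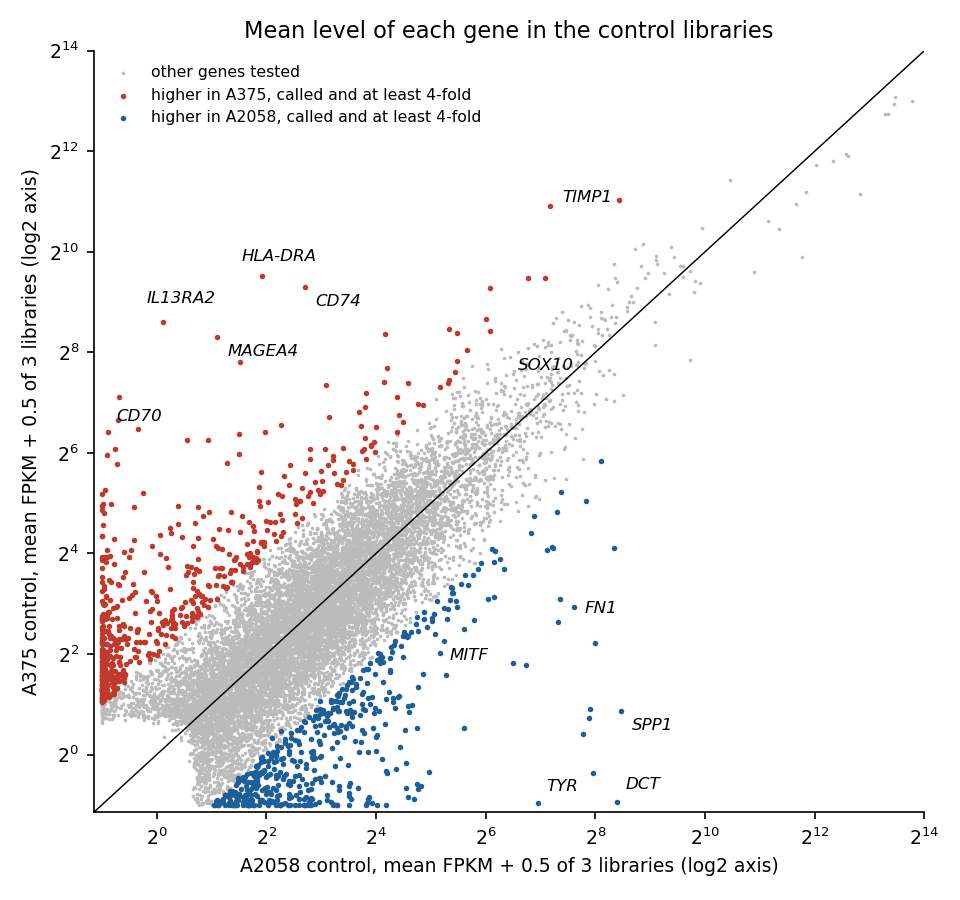
Each point is a gene, with its mean FPKM + 0.5 over the 3 A2058 control libraries on the horizontal axis and over the 3 A375 control libraries on the vertical axis, both on a log2 scale. Red and blue points are the 550 and 504 genes called and at least 4-fold higher in A375 or A2058, grey points the other genes tested, and the line marks equal levels.

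The largest differences in favour of A2058 were led by pigment genes and secreted proteins. Candidates were protein-coding genes called, without overlap between the lines, and with a mean FPKM of at least 10 in either line. The 12 largest estimates ran from -5.42 to -9.34, with adjusted p from 1.07e-11 to 5.94e-10 (limma). As the 12 were picked by call, lack of overlap and size, these p-values lend no further support. Some, such as DCT, PEG10 and RGS5, passed the filter only through A2058. The 12 belonged to the pigment genes DCT, TYR, PMEL and TYRP1, the matrix and matrix-degrading genes SPP1, THBS2, MMP1 and LAMA1, and PEG10, QPCT, QPRT and RGS5. PEG10, an imprinted gene derived from a retrotransposon, stood at 258, 250.4 and 232 in the A2058 libraries and at 0.235, 0.324 and 0.268 in those of A375. RGS5, a brake on G-protein signalling known from pericytes, stood at 23.2, 23.1 and 23.7 against 0.114, 0.0385 and 0.0236. QPCT, which forms pyroglutamate at peptide ends, stood at 254 ± 5.22 (SD, n = 3) against 4.18 ± 0.626. QPRT, an enzyme of NAD synthesis from quinolinate, stood at 26.7 ± 1.64 against 0.124 ± 0.0193.

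The 12 largest in favour of A375 were led by a decoy receptor and by genes of antigen presentation. Their estimates ran from 6.21 to 8.48, with adjusted p from 2.06e-10 to 4.32e-09 (limma). These 12 were picked in the same way, and some, such as IL13RA2, LOXL4 and CD70, passed the filter only through A375. IL13RA2, a receptor that binds interleukin 13 with little signalling of its own, stood at 399.995, 445 and 326 in A375 and 0.543, 0.553 and 0.666 in A2058. HLA-DRA, HLA-DRB1, HLA-DRB5 and CD74 belong to MHC class II, MAGEA4 and PAGE2 to the cancer-testis antigens, and LOXL4 and HAPLN1 to the matrix. LOXL4, a lysyl oxidase that cross-links collagen, stood at 105, 96.2 and 101 against 0.2295, 0.0671 and 0.0516. CD70, the ligand of the T-cell receptor CD27, stood at 85.5, 76.5 and 93.5 against 0.0372, 0.0287 and 0.0606. The last 2 were FDCSP, a small secreted peptide, at 87.9 ± 8.96 against 0.284 ± 0.187, and SYTL5, a RAB27 effector of vesicle traffic, at 67.2 ± 11.6 against 0.0926 ± 0.0325.

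Of the pigment enzymes and melanosome genes, 20 of the 23 tested were higher in A2058, 10 of them at least 4-fold, and 2 were higher in A375. The median of the list was -1.59, beside -0.005 over all genes. The list was written with earlier results of these data known, and its count is a description. Some members, such as DCT, TYR, TYRP1 and MLANA, passed the filter only through the A2058 libraries and had to differ. The melanin enzymes came first. DCT, which converts dopachrome (GRCh38 chromosome 13, 94436811 to 94479682, minus strand), stood at 342, 334 and 333 in the A2058 libraries and at 0.0154, 0.0169 and 0.0311 in the A375 libraries, where 6 reads were seen in all. TYR, the rate-limiting enzyme of melanin synthesis (chromosome 11, 89177875 to 89295759, plus strand), stood at 119.8, 124 and 126 in A2058, and 1 read was seen over the 3 A375 libraries. The pooled ratio for TYR was 12091, with a counting interval from 2170 to 477552. TYRP1, which acts beside TYR, stood at 23.9, 26.6 and 25.7 against 0.0311, 0 and 0.0836. No A375 library came near any A2058 library for these 3 genes.

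Some promoters of the pigment genes carry an element that MITF is known to bind. The E-box CATGTG preceded by T, TCATGTG, is called the M-box. Promoter windows of 300 bases, 250 before to 50 after a start, are given here from RefSeq on GRCh38.p14 as a description. The part of MITF in the line difference was not tested. TCATGTG, or its reverse complement CACATGA where it lies on the other strand, is in capitals, and each such match is also a match to CATGTG. The windows of TYR and TYRP1 hold 1 match each, those of DCT and GPNMB 2 each, and that of SLC24A5 holds 1. DCT has a second window, chr13:94549357-94549656, which holds neither TCATGTG nor CATGTG and is not shown.
TYR promoter, chr11:89177625-89177924, plus strand: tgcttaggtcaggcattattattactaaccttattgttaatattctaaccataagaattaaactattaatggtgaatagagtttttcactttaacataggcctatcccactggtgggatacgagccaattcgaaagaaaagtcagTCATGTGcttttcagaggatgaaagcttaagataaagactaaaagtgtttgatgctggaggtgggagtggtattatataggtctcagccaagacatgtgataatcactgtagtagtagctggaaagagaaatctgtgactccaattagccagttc
TYRP1 promoter, chr9:12693135-12693434, plus strand: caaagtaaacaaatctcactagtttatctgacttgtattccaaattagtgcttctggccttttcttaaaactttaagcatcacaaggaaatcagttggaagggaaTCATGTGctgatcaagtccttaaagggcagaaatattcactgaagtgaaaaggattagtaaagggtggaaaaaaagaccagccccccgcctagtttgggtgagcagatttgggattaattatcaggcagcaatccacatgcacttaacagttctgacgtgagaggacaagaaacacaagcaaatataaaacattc
DCT promoter, chr13:94479633-94479932, minus strand: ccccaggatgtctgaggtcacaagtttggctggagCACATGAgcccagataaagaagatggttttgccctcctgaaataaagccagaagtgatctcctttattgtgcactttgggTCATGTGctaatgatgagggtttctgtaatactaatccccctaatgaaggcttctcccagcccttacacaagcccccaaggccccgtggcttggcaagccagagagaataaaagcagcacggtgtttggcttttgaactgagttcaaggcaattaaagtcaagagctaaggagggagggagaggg
GPNMB promoter, chr7:23246525-23246824, plus strand: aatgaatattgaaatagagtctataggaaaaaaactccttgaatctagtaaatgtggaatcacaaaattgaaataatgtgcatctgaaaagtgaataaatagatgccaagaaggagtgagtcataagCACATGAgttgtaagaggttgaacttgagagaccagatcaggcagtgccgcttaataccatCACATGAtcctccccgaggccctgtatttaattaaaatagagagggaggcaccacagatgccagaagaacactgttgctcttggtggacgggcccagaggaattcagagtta
SLC24A5 promoter, chr15:48120740-48121039, plus strand: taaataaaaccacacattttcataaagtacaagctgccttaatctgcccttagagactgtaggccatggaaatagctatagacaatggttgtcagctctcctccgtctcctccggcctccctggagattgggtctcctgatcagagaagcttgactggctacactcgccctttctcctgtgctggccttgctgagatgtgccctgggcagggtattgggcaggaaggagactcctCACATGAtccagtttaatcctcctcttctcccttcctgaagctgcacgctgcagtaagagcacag
RefSeq windows were found for 18 of the 23 pigment genes, 32 windows in all, and 7 of these windows (21.9%), each of a different gene, held TCATGTG. Over all 35116 windows the share was 2.92%. For CATGTG the shares were 37.5% and 11.1%, and for CACGTG, the other common E-box, 9.38% and 7.26%. Over windows of the genes tested the shares were 1.85% for TCATGTG, 7.45% for CATGTG and 9.54% for CACGTG. For CACGTG the pigment windows therefore lay no higher than those of the genes tested. BLOC1S3, a subunit of a complex for melanosome traffic, held a TCATGTG too and was higher in A375, at 5.27 ± 0.397 against 3.601 ± 0.0848, with an estimate of -0.0049 once the trend in GC and length was removed. A match is a run of letters in a window and not a measured site.

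The structural and transport proteins of the melanosome followed the enzymes. PMEL, which forms the fibrils on which melanin is laid down (chromosome 12, 55954105 to 55973317, minus strand), stood at 213, 210.4 and 228 in A2058 and 1.07, 0.653 and 0.781 in A375. MLANA, the melanosome protein known as Melan-A, stood at 6.09, 6.28 and 7.36 against 0.155, 0.1701 and 0.208. GPNMB, a glycoprotein related to PMEL, stood at 145, 147 and 149 in A2058 and still at 16.5, 17. and 17.3 in A375. The ion and solute carriers differed as well. SLC24A5, a cation exchanger, had no read in A375 and stood at 4.27 ± 0.173 in A2058, at least 256-fold higher against a floor of 3 reads over the group. SLC45A2, a transporter tied to melanosome pH, stood at 3.36 ± 0.183 against 0.299 ± 0.0711, and the channel TRPM1 at 1.204 ± 0.1202 against no read. Of the machinery that moves melanosomes, RAB27A stood at 9.44 ± 0.241 against 0.865 ± 0.146 and MLPH, which links it to the motor, at 2.89 ± 0.136 against 0.266 ± 0.116. OCA2, a melanosomal anion channel, was at 2.52 ± 0.0882 in A2058 and 2.56 ± 0.213 in A375 and was not called (adjusted p = 0.857, limma), with overlapping libraries.

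Of the 11 melanocyte transcription factors tested, 6 (54.5%) were higher in A2058 and 4 (36.4%) in A375, beside 39.3% each way over all genes. MITF (chromosome 3, 69739456 to 69968336, plus strand) stood at 32.99, 37.4 and 35.2 in A2058 and at 3.69, 4.35 and 2.59 in A375, an estimate of -3.17 (SE 0.151, adjusted p = 1.79e-07, limma). SOX10, which lies above MITF in the lineage, went the other way, at 193, 177 and 193 in A375 and 84.9, 76.3 and 84.6 in A2058 (estimate 1.19, SE 0.0766, adjusted p = 1.03e-06, limma). By the ratio of means, A2058 held 9.95 times as much MITF and A375 2.29 times as much SOX10. PAX3, the other activator of MITF, was lower in A375, at 2.32 ± 0.132 against 5.37 ± 0.359. TFE3, a relative of MITF that binds the same elements, was higher in A375, at 36.02 ± 1.17 against 11.6 ± 1.06.

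The AP-2 family was divided between the lines. TFAP2A, which acts with MITF at pigment genes, stood at 17.3, 18.5 and 17.4 in A2058 and 1.51, 1.75 and 1.701 in A375. TFAP2C showed the reverse, 26.2, 30.1 and 34.1 in A375 against 3.35, 3.34 and 2.86. TFAP2B stood at 20.1, 20.5 and 18.8 in A375 and had no read in A2058, at least 4575-fold lower there against the floor. IRF4, which acts with MITF on TYR, had no read in A375 and stood at 10.9, 11.4 and 10.2 in A2058, at least 808-fold higher. LEF1, a WNT effector and partner of MITF, was at 10.1 ± 0.521 in A375 and 10.2 ± 0.856 in A2058 and was not called (adjusted p = 0.823, limma).

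**Figure D2:**
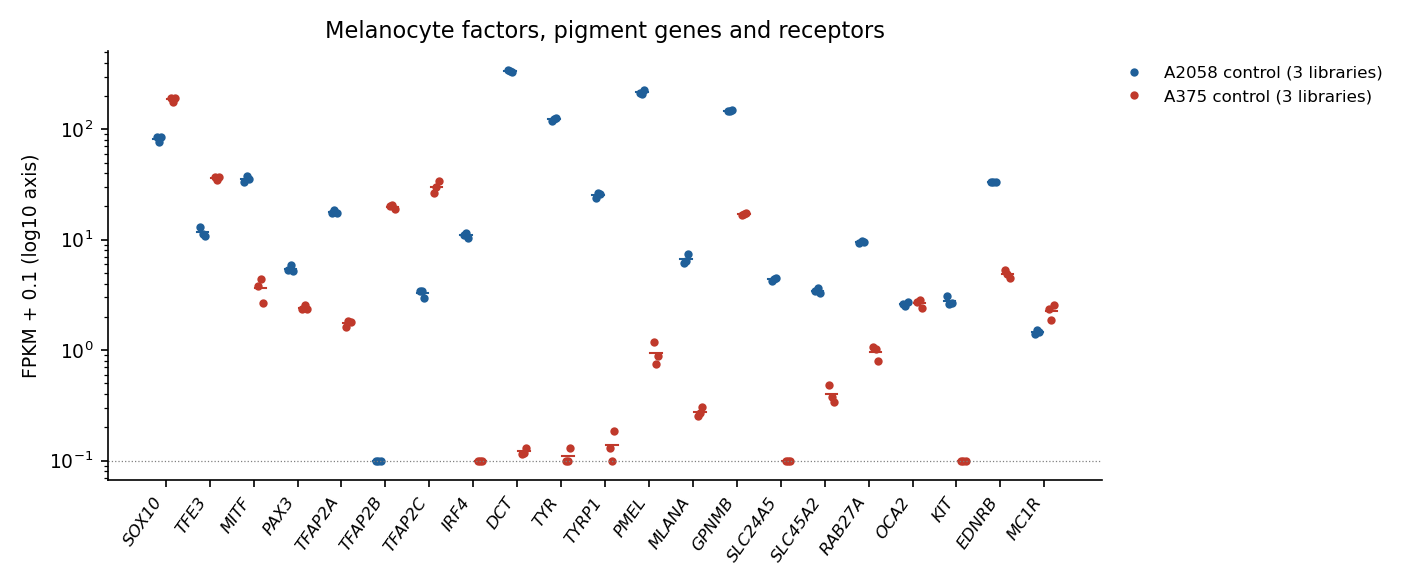
Each point is 1 control library, blue for A2058 and red for A375, with FPKM + 0.1 on a log10 axis and a bar at the mean of 3. The dotted line marks an FPKM of 0, where IRF4, SLC24A5 and KIT lie in A375 and TFAP2B in A2058. SOX10, TFE3, TFAP2B, TFAP2C and MC1R lie higher in A375, and OCA2 overlaps.

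Receptors of the melanocyte were mixed, with 4 of 7 tested higher in A2058 and 3 in A375. KIT, the receptor for stem cell factor, had no read in A375 and stood at 3.004, 2.53 and 2.58 in A2058, and its ligand KITLG was lower in A375 too, at 0.512 ± 0.0342 against 4.83 ± 0.337. EDNRB, the endothelin receptor of the lineage, stood at 33.3 ± 0.146 in A2058 and 4.801 ± 0.432 in A375. MC1R, the melanocortin receptor that raises MITF through cyclic AMP, was higher in A375, at 2.15 ± 0.348 against 1.35 ± 0.0629 (estimate 0.50, or -0.012 with the trend in GC and length removed). Among genes of metabolism and survival that MITF is known to drive, 9 of 10 tested were higher in A2058, 6 of them at least 4-fold, with a list median of -2.18. BCL2A1, an anti-apoptotic BCL2 relative, stood at 18.5 ± 1.36 against 1.87 ± 0.189. PPARGC1A, the coactivator of mitochondrial biogenesis, stood at 2.996 ± 0.164 against 0.131 ± 0.0263, SCD, the stearoyl-CoA desaturase, at 275 ± 5.69 against 56.5 ± 2.63, and CDK2 at 125 ± 0.777 against 33.2 ± 4.49. MET, the HGF receptor, was the exception and was not called (adjusted p = 0.230, limma), at 10.04 ± 1.33 in A375 and 8.98 ± 0.715 in A2058. ACP5, an acid phosphatase, differed by an estimate of -0.49, at 9.69 ± 0.597 in A2058 and 6.73 ± 0.162 in A375.

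Neural crest and Schwann cell genes showed no common side, with 7 of 16 tested higher in A375 and 8 in A2058. Higher in A375 were EGR2, the driver of myelin genes, at 11.8 ± 2.64 against 0.992 ± 0.131, FOXD3 at 9.87 ± 1.99 against 4.81 ± 0.608 and NGFR, the p75 neurotrophin receptor, at 8.24 ± 1.46 against 4.896 ± 0.429. Higher in A2058 were MBP, myelin basic protein, at 3.83 ± 0.0971 against 0.0166 ± 0.0101, NCAM1 at 5.16 ± 0.155 against 0.4096 ± 0.0814, and SNAI2, a neural crest factor also used in epithelial-mesenchymal transition, at 13.1 ± 0.484 against 1.86 ± 0.3999. S100B, the protein used in the clinic as a melanoma marker, was higher in A2058, at 69.7 ± 1.47 against 30.8 ± 3.299. Both lines held the neural crest intermediate filament NES, at 60.98 ± 1.93 in A375 and 68.7 ± 2.95 in A2058.

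Of 19 mesenchymal factors tested, 10 (52.6%) were higher in A375, 3 of them at least 4-fold, and 6 (31.6%) in A2058, beside 39.3% each way over all genes. Quantile normalization gave 8 and 5, and the knockdown libraries 8 on each side. TGFBI, a matrix protein induced by TGF-beta, stood at 78.4, 67.5 and 82.1 in A375 and 1.03, 0.873 and 0.9898 in A2058. NFATC2, a calcium-driven factor, stood at 17.3 ± 0.955 against 1.07 ± 0.191, and FOSL1, the AP-1 subunit FRA1, at 168 ± 18.4 against 39. ± 1.34. TEAD1 and ETS1 were higher in A2058, at 25.4 ± 1.903 against 10.5 ± 1.88 and at 21.1 ± 0.792 against 8.03 ± 0.765. Both lines expressed VIM, the mesenchymal filament, at 402 ± 40.3 in A375 and 284 ± 3.59 in A2058, a direction that turned under quantile normalization, and CDH1, the epithelial cadherin, fell below the filter, at 0 in each A375 library and at 0.0276 ± 0.00846 in A2058.

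Of 58 receptor tyrosine kinases, 3 were not analysed here, 27 fell below the filter and 28 were tested. Of these 15 (53.6%) were higher in A375 and 10 (35.7%) in A2058, beside 39.3% each way over all genes. AXL, the receptor for GAS6 linked to the undifferentiated melanoma state, stood at 75.4, 68.5 and 80.3 in A375 and 23.8, 24.2 and 22.03 in A2058, 3.201 times higher (estimate 1.66, SE 0.0816, adjusted p = 2.21e-07, limma). Its relative MERTK had the opposite pattern, 6.02, 6.04 and 6.15 in A2058 and 0.191, 0.0557 and 0.239 in A375, while TYRO3, the other of that family, differed by an estimate of -0.28. Ephrin receptors were on both sides. EPHB2 stood at 3.74 ± 0.507 against 0.00942 ± 0.00222 and EPHA2 at 51.8 ± 7.65 against 13.8 ± 1.06, both higher in A375, whereas EPHA4 was higher in A2058 at 8.38 ± 0.374 against 2.32 ± 0.4497. The insulin receptor INSR stood at 1.92, 2.23 and 1.85 in A375 and 0.0867, 0.109 and 0.0971 in A2058, and IGF1R at 20.4 ± 0.902 against 7.43 ± 0.478. EGFR, the EGF receptor, was below the filter in both lines, at 0.498 ± 0.133 in A375 and 0.003398 ± 0.00295 in A2058. ERBB3, a neuregulin receptor, was higher in A375, at 48.6 ± 0.866 against 31. ± 0.889.

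Growth factor ligands were evenly split, with 12 of 28 tested on each side, 5 and 2 of them at least 4-fold. TGFA, a ligand of EGFR, was the most abundant ligand in A375, 207, 204 and 207 against 18.8, 18.03 and 17.1 in A2058, a ratio of 11.5. BMP2 stood at 7.92 ± 0.955 against 0.0547 ± 0.0454, and INHBA, the activin subunit, at 40.8 ± 8.996 against 4.85 ± 0.557. GDF15, a stress-induced TGF-beta relative, was the ligand with the largest difference the other way, 112, 95.4 and 112 in A2058 and 2.84, 2.198 and 3.74 in A375.

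In the WNT pathway, 8 of 23 tested genes (34.8%) were higher in A375 and 11 (47.8%) in A2058, beside 39.3% each way over all genes. WNT5A, a non-canonical WNT ligand linked to melanoma invasion, stood at 6.24, 7.92 and 7.198 in A375 and 0.0731, 0.107 and 0.1003 in A2058. It was the only member at least 4-fold apart by the estimate. ROR1, one of its receptors, was higher in A2058, at 3.42 ± 0.0926 against 0.717 ± 0.157. CTNNB1, which encodes beta-catenin, was also higher in A2058, 120.4 ± 3.56 against 34.8 ± 1.79 (ratio 3.46). Of the nuclear partners of beta-catenin, TCF7L2 was higher in A375, at 12.2 ± 0.325 against 3.74 ± 0.438.

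**Figure D3:**
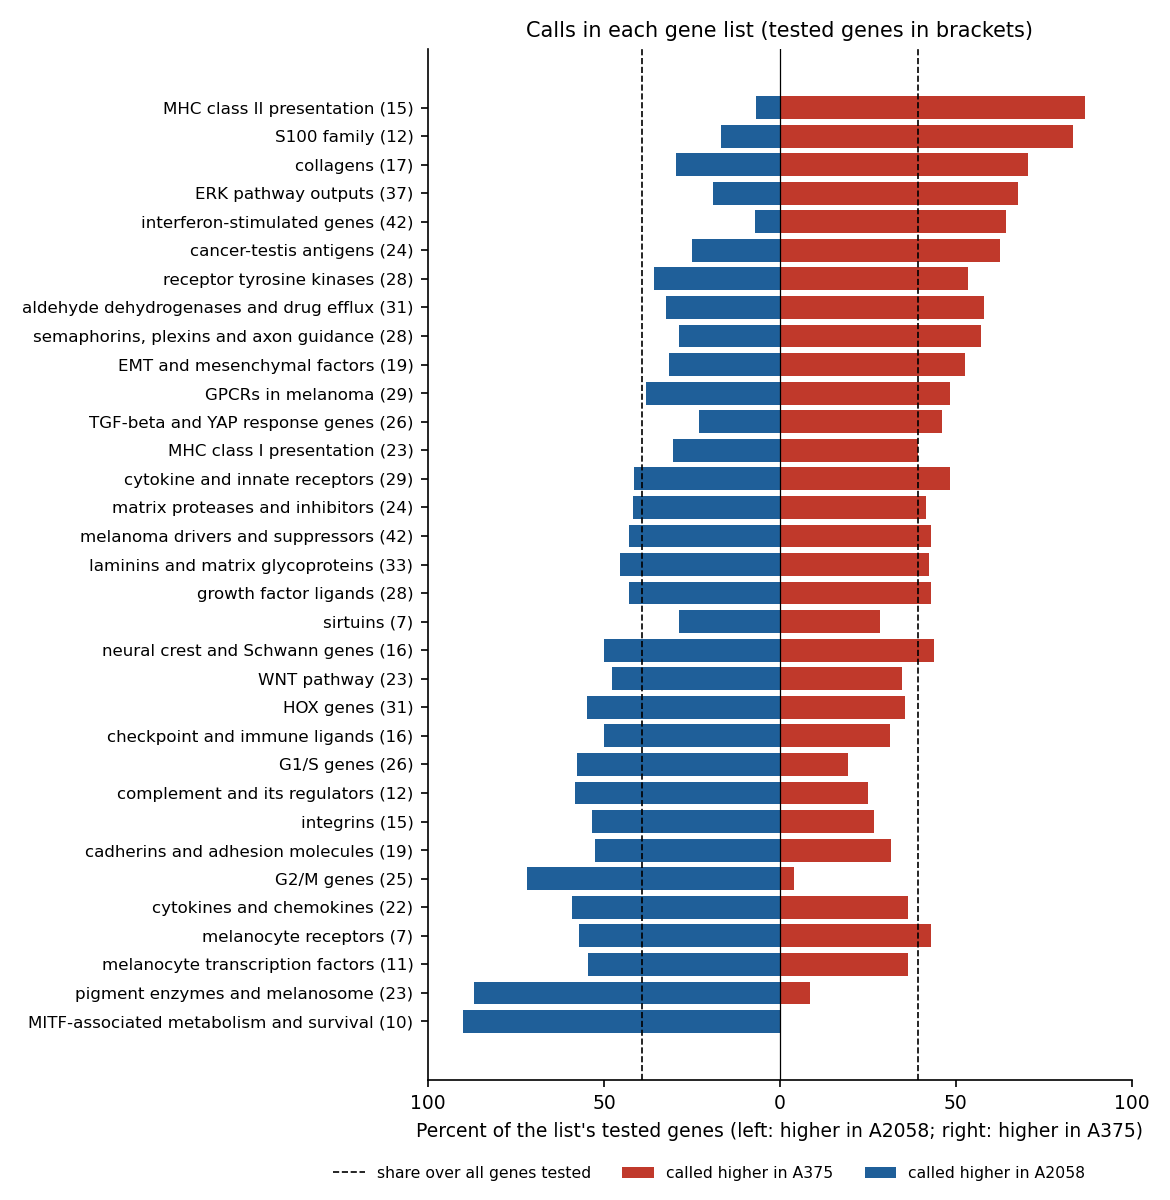
For each gene list, the bars give the percent of its tested genes called higher in A375 (red, to the right) and higher in A2058 (blue, to the left), with the number tested in brackets. The lists are ordered by their median difference, and the dashed lines mark the share over all genes tested, 39.3% on each side. Class II presentation lies at one end and MITF-associated and pigment genes at the other.

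Integrins were higher in A2058 in 8 of 15 tested (53.3%) and higher in A375 in 4 (26.7%), beside 39.3% each way over all genes. None of them was 4-fold by the estimate. ITGB1, the beta subunit shared by most matrix receptors, stood at 65.4, 66.3 and 65.2 in A2058 and 22.98, 26.4 and 19.4 in A375, and ITGAV at 24.97 ± 1.61 against 9.204 ± 1.71. ITGA3, the laminin-binding subunit, was higher in A375, at 35.5 ± 1.86 against 10.6 ± 0.464. Cadherins and other adhesion molecules were higher in A2058 in 10 of 19 tested (52.6%) and in A375 in 6 (31.6%). No test sets these shares against the background. The tight junction protein CLDN1 stood at 12.97 ± 1.02 in A2058 against 0.899 ± 0.112, and the neuronal adhesion molecule NRCAM at 10.9 ± 0.246 against 1.04 ± 0.2402. The protocadherin PCDH1 at 17.1 ± 1.03 against 1.62 ± 0.275 and CDH13, a cadherin anchored by lipid, at 6.94 ± 0.342 against 0.742 ± 0.0627 were higher in A375.

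Collagens were higher in A375 in 12 of 17 tested, 5 at least 4-fold, and higher in A2058 in 5. COL5A2, a fibrillar collagen chain, stood at 16.4, 17.7 and 14.7 in A375 and 0.261, 0.138 and 0.254 in A2058. Of the type VI collagen chains, COL6A2 stood at 26.5 ± 2.15 against 1.304 ± 0.129 and COL6A1 at 50.3 ± 2.58 against 11.4 ± 0.535. COL15A1 and COL25A1 were higher in A2058, at 3.38 ± 0.0878 against 0.311 ± 0.104 and 2.503 ± 0.167 against 0.0216 ± 0.0319. The basement membrane chain COL4A1 was at 25.9 ± 0.765 in A375 and 31.3 ± 1.71 in A2058, an estimate of -0.27.

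Glycoproteins were split, with 14 of 33 tested higher in A375 and 15 in A2058, and with the trend in GC and length removed the counts were 11 and 17. The largest differences were on the A2058 side. SPP1, osteopontin, stood at 349, 354 and 361 in A2058 and 1.68, 1.26 and 1.01 in A375. FN1, fibronectin, stood at 205, 199 and 183 against 6.56, 7.8 and 7.08, and THBS2, an anti-angiogenic thrombospondin, at 245, 228 and 234 against 0.952, 1.49 and 1.01. The laminin chain LAMA1 at 27.9 ± 0.598 against 0.152 ± 0.0227, FBLN5 at 22.7 ± 1.66 against 0.384 ± 0.143 and MATN2 at 10.8 ± 0.761 against 0.0614 ± 0.0291 had the same side. The other thrombospondin, THBS1, was higher in A375, at 74.8, 102 and 99.9 against 13.3, 13.2 and 11.6. SPARC, the most abundant of the glycoproteins in both lines, was at 847 ± 68.6 in A375 and 774 ± 12.1 in A2058 and was not called (adjusted p = 0.213, limma). Of the 10 fibroblast markers, 9 were in the table and 3 were tested. LUM and FAP were higher in A2058, LUM at 9.32 ± 0.791 against 0.934 ± 0.111 and FAP at 4.798 ± 0.4797 against 0.0816 ± 0.03296. PDGFRB was higher in A375, at 1.42 ± 0.252 against 0.203 ± 0.0604. The other 6 were below 1 in every control library. Of these COL1A1, COL1A2, COL3A1, DCN and PDGFRA lay higher in all 3 A2058 libraries, with COL1A1 at 0.697 ± 0.0626 against 0.281 ± 0.0193, and THY1 overlapped. The part of fibroblast-like cells in these results was not tested.

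Matrix proteases and their inhibitors counted 10 of 24 tested on each side, 6 at least 4-fold higher in A375 and 3 in A2058. MMP1, interstitial collagenase, stood at 237, 244 and 239.7 in A2058 and 1.18, 1.29 and 1.62 in A375. MMP8, another collagenase, stood at 24.7 ± 0.858 against 1.49 ± 0.311 and MMP14, the membrane-bound activator of MMP2, at 118 ± 3.62 against 34.6 ± 0.917. TIMP1, an inhibitor of these enzymes, was higher in A375, 1884, 1841 and 2072 against 151, 138 and 144 in A2058. TIMP3 at 622 ± 36.5 against 67.4 ± 2.53 and SERPINE2, an inhibitor of thrombin and urokinase, at 713 ± 38.6 against 109 ± 4.599 were higher in A375 as well. MMP2 was higher in A375, at 56.9 ± 4.54 against 20.4 ± 0.503, and TIMP2 in A2058, at 35.02 ± 0.465 against 12.7 ± 1.33, so neither class lay on one side entirely. Of 26 response genes of TGF-beta and YAP, 12 were higher in A375, 4 at least 4-fold, and 6 in A2058, and 8 were not called.

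MHC class II genes, which present peptides to helper T cells and are normally carried by professional antigen-presenting cells, were higher in A375 in 13 of 15 tested, 12 of them at least 4-fold. The list median was 3.94. CIITA, the master regulator of these genes (chromosome 16, 10866222 to 10943021, plus strand), stood at 15.1, 14.7 and 16.6 in A375 and 0.565, 0.5297 and 0.514 in A2058 (estimate 3.94, SE 0.0873, adjusted p = 2.57e-09, limma). HLA-DRA stood at 742, 659 and 803 against 3.295, 2.86 and 3.75, and CD74, the invariant chain, at 608, 585 and 685 against 6.16, 6.09 and 5.83. HLA-DPA1 at 93.8 ± 9.44 against 4.33 ± 0.235 and the peptide loader HLA-DMA at 53.7 ± 6.99 against 4.903 ± 0.331 had the same side. HLA-DRB1 was at 225 ± 27.05 against 2.36 ± 0.502 and HLA-DRB5 at 138 ± 19.8 against 0.124 ± 0.0667, but these near-identical and highly variable genes can share reads, so the split between them is uncertain. HLA-DOB was not called, at 1.24 ± 0.321 and 1.11 ± 0.1298 (adjusted p = 0.571, limma). CTSS, the protease that trims the invariant chain, was higher in A2058, at 7.36 ± 0.263 against 1.25 ± 0.146. LYZ, the leukocyte marker given above, was higher in A375 too, and the other 7 leukocyte markers in the table fell below the filter. PTPRC, CD3E, CD3D and CD68 were below 0.1 in every control library. CD14 was at 0.292 ± 0.164 in A375 and 0.253 ± 0.1699 in A2058, NKG7 at 0.162 ± 0.229 and 0.0509 ± 0.0614, and FCER1G at 0.485 ± 0.198 and 0.814 ± 0.369, each with overlapping libraries. The part of leukocytes in these results was not tested.

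Class I genes did not share this pattern. Of 23 tested, 9 were higher in A375 and 7 in A2058, and with the trend in GC and length removed the counts were 4 and 10. HLA-C was at 119.8, 102 and 120.05 in A375 and 116, 104 and 120.1 in A2058, and the light chain B2M at 125, 109.9 and 114 and 117, 125 and 132, with overlapping libraries and no call for either (adjusted p = 0.966 and 0.264, limma). HLA-B was higher in A375, at 156, 128 and 154 in A375 and 14.2, 11.97 and 14.3 in A2058. ERAP2, which trims peptides for class I, stood at 9.67 ± 0.687 in A2058 and 0.454 ± 0.115 in A375. The stress ligand MICB, seen by natural killer cells, stood at 39.3 ± 1.003 against 6.91 ± 1.69. HLA genes resemble each other closely, so the level of a single one is uncertain.

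Interferon-stimulated genes were higher in A375 in 27 of 42 tested, 6 of them at least 4-fold, and higher in A2058 in 3, with a median of 0.77. The 2',5'-oligoadenylate synthetases, which sense double-stranded RNA and activate RNase L, led the list. OAS2 stood at 33.99, 20.7 and 17.1 in A375 and 1.02, 1.33 and 0.992 in A2058, OAS3 at 53., 31.96 and 33.7 against 3.23, 3.32 and 2.91, and OAS1 at 30.1, 16.3 and 18.2 against 1.67, 2.16 and 2.06. IFI6 stood at 497, 279 and 282 against 38.7, 39.1 and 41.6, and the ubiquitin-like ISG15 at 246, 129.9 and 127 against 21.5, 23.9 and 24.6. In all 5, A375 replicate 1 was the highest of its group and the A2058 libraries lay below each A375 library. Without A375 replicate 1 the list had 25 genes higher in A375 and 5 higher in A2058. DDX58, the RNA sensor RIG-I, was at 18.7, 10.96 and 6.39 against 4.93, 5.605 and 4.85, while IFIT3 was not called (adjusted p = 0.0538, limma).

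**Figure D4:**
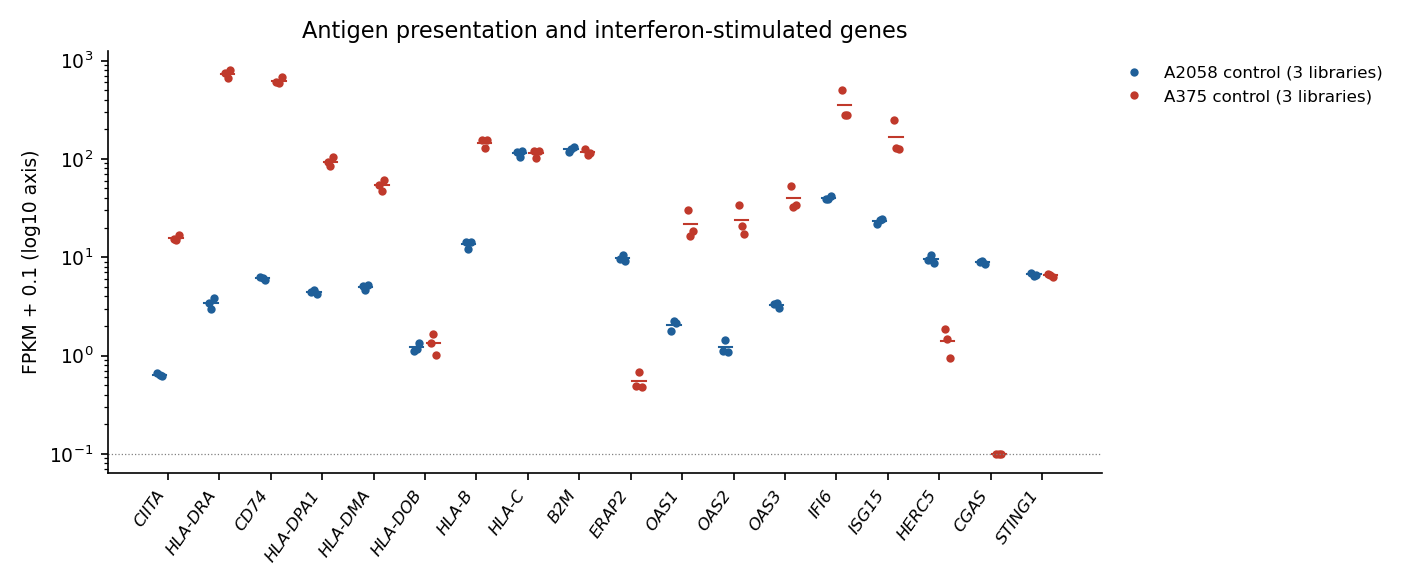
Each point is 1 control library, blue for A2058 and red for A375, with FPKM + 0.1 on a log10 axis and a bar at the mean of 3. Class II genes except HLA-DOB lie higher in A375, HLA-C, B2M and STING1 overlap, and CGAS lies at 0 in A375 (dotted line). A375 replicate 1 is the upper red point for OAS1 to ISG15.

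A few members of the innate response were on the A2058 side. CGAS, the sensor of cytosolic DNA, had no read in A375 and stood at 8.88, 8.95 and 8.45 in A2058, at least 463-fold higher against the floor. Its partner STING1 was at 6.68, 6.43 and 6.25 in A375 and 6.89, 6.36 and 6.56 in A2058 and was not called (adjusted p = 0.725, limma). HERC5, the ligase that attaches ISG15, stood at 9.46 ± 0.937 in A2058 against 1.32 ± 0.457.

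Secreted immune signals differed between the lines in kind. Of 22 cytokines and chemokines tested, 13 were higher in A2058 and 8 in A375. CXCL8, the neutrophil attractant interleukin 8, stood at 146, 156 and 148 in A2058 and 20.3, 17.5 and 12.1 in A375, and IL6 at 5.297, 5.06 and 4.2 against 0.0562, 0.0616 and 0.0377. IL24, a cytokine first found in melanoma cells, stood at 93.8, 71.3 and 88.6 in A375 and 3.16, 3.604 and 3.48 in A2058, and TNFSF9, the ligand of the co-stimulatory receptor 4-1BB, at 29.4, 27.8 and 33.3 against 0.819, 0.8999 and 0.719. IL1A stood at 12.5 ± 2.18 against 1.58 ± 0.0309, higher in A375. Of 29 cytokine and innate receptors, IL13RA2 and TLR4 among them, 14 were higher in A375 and 12 in A2058. Of 16 checkpoint and immune ligands, 8 were higher in A2058 and 5 in A375. CD274, the checkpoint ligand PD-L1, was low in both and higher in A2058, 1.93 ± 0.229 against 1.17 ± 0.08804, and TNFRSF14, the receptor HVEM, was at 10.6 ± 1.16 against 1.28 ± 0.127. TLR4, the endotoxin receptor, was higher in A375, at 13.3 ± 2.37 against 2.61 ± 0.20. Of 12 complement genes, 7 were higher in A2058, among them A2M at 15.7 ± 0.375 against 3.17 ± 0.2703. CD55, which shields cells from complement, was higher in A375, at 61.2, 58.4 and 52.01 against 21.9, 22.6 and 21.4, and so was C3, at 2.74 ± 0.318 against 0.0215 ± 0.0232.

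Cancer-testis antigens are germ-line genes that tumours switch on. Of 68 listed, 21 were not analysed here, 23 fell below the filter and 24 were tested, with 15 higher in A375, 9 of them at least 4-fold, and 6 higher in A2058. MAGEA4 stood at 309.9, 285 and 355 in A375 and 1.63, 1.59 and 1.74 in A2058, MAGEC2 at 82.7 ± 6.42 against 2.33 ± 0.576, and PAGE5 at 163 ± 14.9 against 7.97 ± 0.569. MAGEB2 at 13.2 ± 0.949 against 0.846 ± 0.0972 and MAGEC1 at 4.74 ± 0.379 against 0.167 ± 0.0885 were higher in A2058. PRAME, an antigen common in melanoma, was present in both, at 45.1 ± 3.14 in A375 and 63.4 ± 3.89 in A2058. PAGE2 at 54.7 ± 6.45 against 0.103 ± 0.1398, like many of these genes, has near-identical copies, and counts for such genes are uncertain.

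HOX genes record the body position of a cell's origin. Of 39 listed, 31 were tested, 17 of them higher in A2058 and 11 in A375, and 1 at least 4-fold higher in A2058. With the trend in GC and length removed the counts were 18 and 5. HOXD4 differed most, at 7.48 ± 0.274 in A2058 and 0.477 ± 0.139 in A375, and HOXC13 differed most on the A375 side, at 14.2 ± 1.205 against 5.43 ± 0.468. S100 calcium-binding genes were higher in A375 in 10 of 12 tested, 6 at least 4-fold, with a median of 1.82. S100A6 stood at 2084 ± 273 against 345 ± 28.2, S100A4, linked to metastasis, at 335 ± 46.2 against 44.05 ± 2.85, and S100A2 at 62.3 ± 9.42 against 2.32 ± 0.515. Of aldehyde dehydrogenases and drug efflux genes, 18 of 31 were higher in A375 and 10 in A2058. ALDH1A3, which makes retinoic acid, stood at 47.9 ± 3.0 against 8.94 ± 0.515, while the quinone reductase NQO1 was higher in A2058, at 323 ± 0.30 against 131 ± 17.6. Semaphorins, plexins and other axon guidance genes were higher in A375 in 16 of 28 tested and in A2058 in 8, and with the trend in GC and length removed in 13 and 12, with a median of 0.02 beside 0.02 over all genes. G-protein-coupled receptors studied in melanoma were higher in A375 in 14 of 29 (48.3%) and in A2058 in 11 (37.9%), beside 39.3% each way over all genes.

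Some genes were expressed in one line and silent in the other, by an FPKM of at least 10 in all 3 libraries of one and below 0.1 in all 3 of the other. Over 25402 genes, 21 (0.0827%) were silent in A2058 and 10 (0.0394%) in A375. All 10 genes silent in A375 were protein-coding: DCT, TYR, TYRP1, IRF4, CDKN2B, SELENBP1, EPB41L3, CYGB, MME and PYCARD. PYCARD, the adaptor ASC of the inflammasome, had no read in A375 and stood at 13.96, 12.6 and 14.1 in A2058, at least 282-fold higher. SELENBP1, a selenium-binding methanethiol oxidase, had none and stood at 15.7 ± 1.07. MME, the peptidase neprilysin, stood at 13.7 ± 0.618 against 0.00944 ± 0.00843, EPB41L3, a membrane skeleton protein, at 14.7 ± 0.7301 against 0.0139 ± 0.00725, and CYGB, cytoglobin, at 13.9 ± 0.95 against 0.0424 ± 0.0425.

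Of the 21 silent in A2058, 17 were protein-coding. They included CD70, HAPLN1 and TFAP2B, described above. SOD3, the extracellular superoxide dismutase, stood at 29.5, 26.1 and 30.1 in A375 with no read in A2058, at least 2205-fold lower there. HLA-DQA2, a class II chain, stood at 30.2 ± 5.76 with no read in A2058. SULF2, which edits heparan sulfate, stood at 23.2 ± 1.68 against 0.00737 ± 0.00663, and GTSF1, a piRNA pathway gene of the germ line, at 27.4 ± 2.77 against 0.0154 ± 0.0177. B3GNT7, a glycosyltransferase of keratan sulfate, stood at 16.4 ± 0.185 against 0.0329 ± 0.0157. In the knockdown libraries each of the 31 genes kept the lines fully apart in the same direction, and 14 of the 21 and 7 of the 10 stayed below 0.1 in every knockdown library of the silent line. The 31 were chosen for a large gap in the controls, so staying apart adds little. Over all genes tested, 82.4% were called between the lines in the knockdown libraries. The share without overlap there is not given here.

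Promoters of the silent genes were not alike in CpG content, the dinucleotide at which DNA methylation acts. The 15 RefSeq windows of genes silent in A375 had a median of 23 CpG per 300 bases and the 17 of genes silent in A2058 a median of 15, beside 14 over all windows and 25 over windows of the genes tested. These windows are not independent. The 15 come from 8 of the 10 genes, with 4 each from MME and EPB41L3, and the 17 from 13 of the 21, with 4 from SULF2, and some overlap. The windows of PYCARD and IRF4 are shown with each CpG in capitals, since they hold 23 and 32 CpG and differ in this from the TYR window above, which holds 2. DNA methylation was not measured. TCATGTG was held by 4 of the 15 windows (26.7%) and by 2 of the 17 (11.8%). The share was 2.92% over all windows and 1.85% over windows of the genes tested. The 4 windows belong to MME and to the pigment genes TYR, TYRP1 and DCT, counted above.
PYCARD promoter, chr16:31202711-31203010, minus strand: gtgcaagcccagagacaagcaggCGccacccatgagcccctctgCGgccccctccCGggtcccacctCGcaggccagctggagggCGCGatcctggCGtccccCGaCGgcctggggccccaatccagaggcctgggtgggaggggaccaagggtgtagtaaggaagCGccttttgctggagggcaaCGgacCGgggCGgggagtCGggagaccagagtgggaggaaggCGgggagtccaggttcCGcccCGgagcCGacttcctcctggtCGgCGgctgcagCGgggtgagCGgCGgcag
IRF4 promoter, chr6:391502-391801, plus strand: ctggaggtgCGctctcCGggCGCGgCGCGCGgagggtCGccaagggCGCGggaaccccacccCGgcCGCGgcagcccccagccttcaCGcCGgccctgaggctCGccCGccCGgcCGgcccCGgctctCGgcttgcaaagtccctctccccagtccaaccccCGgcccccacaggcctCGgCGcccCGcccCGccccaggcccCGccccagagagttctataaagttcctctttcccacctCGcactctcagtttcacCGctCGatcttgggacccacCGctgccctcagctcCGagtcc

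Among melanoma drivers and suppressors, 18 of 42 tested were higher in each line, and with the trend in GC and length removed 21 were higher in A375 and 15 in A2058. The CDKN2A-CDKN2B locus, which encodes inhibitors of CDK4 and CDK6, stood out. CDKN2B (chromosome 9, 22002903 to 22009305, minus strand) had no read in any A375 library and stood at 18.4, 17.2 and 17.4 in A2058, at least 891-fold higher, and CDKN2A stood at 16.7, 13.9 and 16.5 in A2058 and 0.846, 0.559 and 1.01 in A375. Their neighbour MTAP, a methionine salvage enzyme, was higher in A375, at 13.2 ± 1.23 against 7.497 ± 0.104. CCND1, the cyclin D1 that activates CDK4 and CDK6, stood at 162, 171 and 177 in A375 and 18.6, 16.5 and 16.2 in A2058. CDK4 was higher in A375, at 68.9 ± 11.7 against 29.5 ± 2.58. BRAF was at 1.62, 2.01 and 1.38 in A375 and 1.32, 1.51 and 1.26 in A2058 and was not called (adjusted p = 0.161, limma). EZH2 at 20.6 ± 1.22 against 7.39 ± 1.03 and TERT at 1.79 ± 0.191 against 0.265 ± 0.0146 were higher in A2058.

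Transcripts that rise with ERK signalling were higher in A375 in 25 of 37 tested, 6 at least 4-fold, and higher in A2058 in 7, with a median of 1.00. With the trend in GC and length removed the median was 0.53, with 24 and 8 called. EGR1, an immediate early factor, stood at 128, 102 and 105 in A375 and 13.1, 12.7 and 11.6 in A2058. The feedback inhibitors DUSP6, a phosphatase of ERK, at 43.2 ± 0.798 against 17.5 ± 0.461 and SPRY4 at 26.2 ± 1.04 against 7.73 ± 0.421 were higher in A375, whereas SPRY1 was higher in A2058, at 8.57 ± 0.563 against 1.58 ± 0.123. ETV5, an ETS factor of the same pathway, was not called (adjusted p = 0.328, limma).

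Of 25 G2/M genes, 18 were higher in A2058 and 1 in A375, with a median of -0.67. None was 4-fold by the estimate, the lowest being -1.99. Of 26 G1/S genes 15 were higher in A2058 and 5 in A375. CDK1, the mitotic kinase, stood at 51.7, 59.5 and 55.2 in A2058 and 12.8, 15.3 and 12.7 in A375, TOP2A at 76.4 ± 4.41 against 24.6 ± 4.46, and CCNE2, a cyclin of S phase entry, at 8.39 ± 0.807 against 1.28 ± 0.209. CDKN1A, the p21 inhibitor of cyclin-dependent kinases, was higher in A375, at 233, 206 and 242 against 45.3, 42.6 and 43.9 in A2058. CCNB1, the partner of CDK1, was at 72.9 ± 0.993 in A2058 and 72.9 ± 9.55 in A375 and was not called (adjusted p = 0.950, limma). CDC20, which activates the anaphase-promoting complex, was the G2/M gene higher in A375, at 104 ± 18.6 against 67.9 ± 0.801, and the replication helicase subunit MCM2 was higher there too, at 26.9 ± 3.197 against 11.8 ± 1.11.

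SIRT5, the gene targeted elsewhere in the series, was low in the controls of both lines. It stood at 1.16, 1.37 and 1.21 in A375 and 2.36, 2.17 and 1.81 in A2058 (chromosome 6, 13574227 to 13615158, plus strand), lower in A375 by an estimate of -0.58 (SE 0.114, adjusted p = 0.00132, limma), with no overlap. Of the 7 sirtuins, 2 were higher in A375 and 2 in A2058, and with the trend in GC and length removed 0 and 5 were. SIRT1, a nuclear deacetylase, was higher in A2058, at 10.3 ± 0.852 against 4.54 ± 0.926, and SIRT7 in A375, at 5.47 ± 0.708 against 3.72 ± 0.231.

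The knockdown libraries give the same line difference in samples that share no control with the comparison above, 6 per line, with the knockdown arm as a covariate. Their sample numbers also lie in separate ranges by line. Line and library preparation therefore cannot be told apart in the knockdown libraries either. Of the genes tested, 10555 (82.4%) were called between the lines there. Of the 10079 genes called in the controls, 8424 were called the same way and 356 the opposite way. Of the 1054 called and at least 4-fold apart, 1034 were called the same way and 2 the opposite way. All 24 genes of largest difference named above were called the same way, with no overlap between the lines in their knockdown libraries. They were picked for a large gap in the controls, so this adds little. The knockdown cells carry hairpins against SIRT5, so the values there are those of treated cells.

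Of the pigment genes, 21 were called the same way in the knockdown libraries. DCT was at 74.7 ± 24.2 (SD, n = 6) in A2058 knockdown libraries and 0.00557 ± 0.00939 in those of A375, TYR at 139.6 ± 24.97 and 0.0323 ± 0.0303, and MITF at 14.95 ± 1.997 and 1.64 ± 0.642. HLA-DRA was at 1072 ± 139 in A375 and 3.06 ± 2.01 in A2058. Of the interferon-stimulated genes, 16 were higher in A375 and 19 in A2058 in the knockdown libraries, with a median of -0.20, and IFI6 was not called there, at 56.9 ± 19.6 in A375 and 48.1 ± 12.8 in A2058. TIMP1 had a line difference of 0.99 in the knockdown libraries beside 3.74 in the controls. CD55 was lower in A375 there, at 20.3 ± 6.597 against 38.96 ± 9.93, and A2M was higher, at 19.4 ± 4.805 against 11.9 ± 9.19. The ERK outputs had 21 genes higher in A375 and 10 in A2058, with a median of 0.38. Complement genes had 4 on each side. Cytokines and chemokines had 8 higher in A375 and 9 in A2058, with a median of 0.01 beside -0.82 in the controls. G1/S genes had 0 higher in A375 and 18 in A2058.

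**Figure D5:**
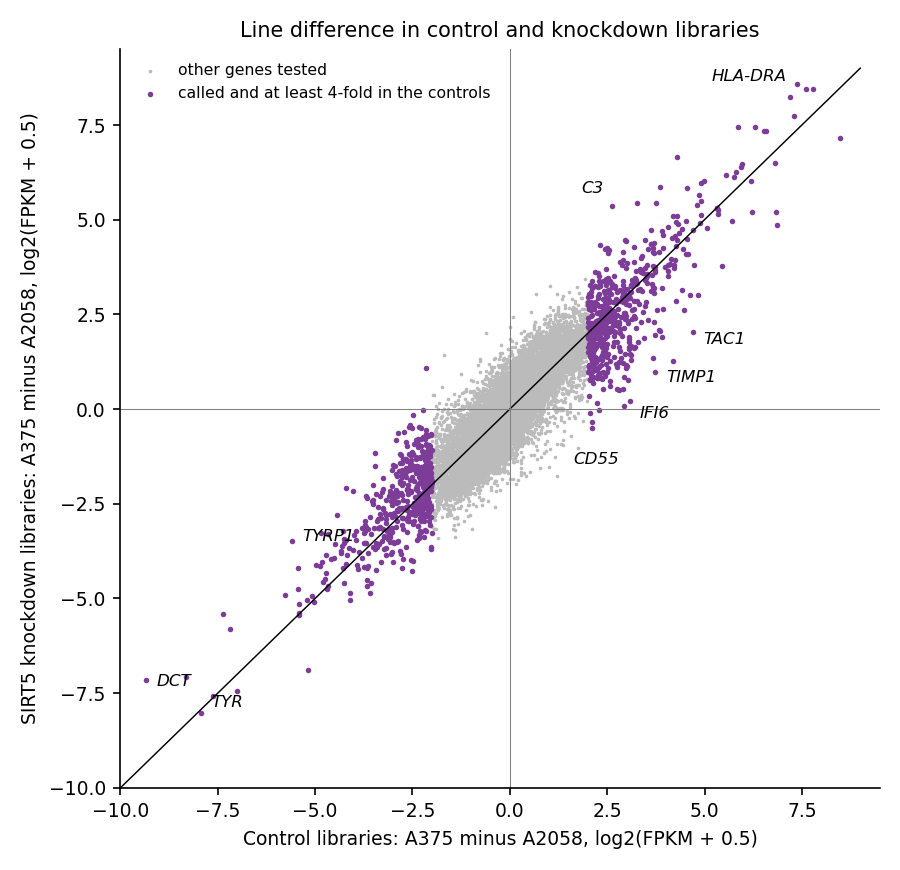
Each point is a gene tested, with the difference A375 minus A2058 on the log2(FPKM + 0.5) scale in the control libraries on the horizontal axis and in the SIRT5 knockdown libraries on the vertical axis. Purple points are genes called and at least 4-fold apart in the controls, and the line marks equal differences. IFI6, TIMP1 and TAC1 lie below the line and C3 above it.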

How the data were processed

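RNA-seq of 27 libraries from 3 melanoma lines was deposited as FPKM by the authors. The submitters' processing notes name the aligner STAR 2.7.3a and genome build GRCh38. For counting they name Subread 2.0.0 with its featureCounts program. DESeq2 1.28.1 was named by the authors, per the submitters' processing notes, and was not run here. They also name Trimmomatic 0.39 and, for quality reports, MultiQC 1.9 and FastQC 0.11.9. The strand setting of the counting is not stated, so overlapping antisense genes are uncertain. The authors' deposited mean signal per gene (reads divided by size factors) gave the constant that turns FPKM back into reads. All values (100.0%) came out whole within 0.05, and the recovered reads gave depths, floors and 1 alternative. Intervals and floors of 3 reads cover counting error only.

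The 3 A375 and 3 A2058 controls were compared with limma 3.58.1 (R 4.3.3, variance trend) on log2(FPKM + 0.5), for genes with an FPKM of at least 1 in 3 libraries. P-values were adjusted by Benjamini-Hochberg over all genes tested, with a threshold of 0.05. The knockdown libraries were fitted apart, with the knockdown arm as a term. The fit was tested on simulated data of 12811 genes for this comparison, 200 of them changed. It recovered 66.1% of changes of 1.5-fold, 98.6% of 2-fold and 100% of 4-fold, and 10 unchanged genes were called. The simulation had 1 level of spread per line and far fewer changed genes than were called in the data. These rates may therefore differ in the data. Annotation and coordinates came from GENCODE release 44, which held 25905 of the 26004 IDs, and promoters from RefSeq. The genes named were the silent genes with the highest levels, up to 6 members per list, and the 12 largest differences each way. Those 12 were called, did not overlap between the lines and had a mean FPKM of at least 10. Some genes are not reported here. Further members were named for their known role after their values were seen. The members and lists were chosen with earlier results of these data known. Alternatives covered the pseudocount, filter, scaling, GC and length trend, variance trend, samples fitted, recovered reads, replicate block and each library left out.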

Additional observations from a re-analysis of the deposited data

Results flagged for a closer look

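CD55 and ACP5 were picked out because every A375 library lay on one side of every A2058 library in the controls and on the other side in the knockdown libraries. The line difference of CD55, A375 minus A2058 on the log2 scale, was 1.36 in the controls and -0.95 in the knockdown libraries. For ACP5 it was -0.49 and 1.01. The difference between both sets of libraries was not tested. Over 12800 of the 12811 genes tested, 99 (0.773%) showed such a change of side.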

How the results depend on the processing

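The number of genes called was 10079 and stayed within 1.5 times of that under every alternative run, from 9422 to 10341 with 1 control library left out. The number at least 4-fold apart followed the pseudocount, which weighs on low genes. It was 815 higher in A375 and 831 in A2058 with a pseudocount of 0.1, 343 and 302 with a pseudocount of 1, and 882 and 898 with limma-voom on recovered reads. With 1 library left out it ran from 540 to 575 in A375 and 491 to 522 in A2058. Genes silent in A2058 numbered 37, and in A375 24, when silence meant below 0.5, and 48 and 26 when the other line had to reach only 5. With 1 library left out they numbered 21 to 24 and 10 to 12. Of 3436 values of 191 named genes under the alternatives, 3390 kept their call, 22 lost it, 15 gained one and 9 turned. With the trend in GC and length removed the estimates were 0.30 for CCNB1, -0.51 for HLA-C, -0.27 for OCA2, 0.41 for B2M, -0.012 for MC1R and -0.0049 for BLOC1S3. With quantile normalization they were -0.17 for SPARC, -0.22 for HLA-C and -0.015 for VIM. The cause was not tested. Of the genes called, 8083 were called the same way with that trend removed and 277 the opposite way. Scaling to total assigned reads, an alternative chosen after seeing the data, gave 4794 higher in A375 and 5326 in A2058. The replicate block gave 10345 genes called. Same-numbered libraries of the lines had correlations of their deviations of -0.048, 0.192 and 0.155. Those of differently numbered libraries ran from -0.236 to 0.093. The labels give no shared well or day between the lines, so the numbers were not taken as pairs. The low depth of A375 replicate 2 limits low genes, and leaving it out gave 10341 calls.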

Other observations

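Line differences also varied by position in the genome. By chromosome, the median difference, A375 minus A2058 on the log2 scale, ran from -0.71 on chromosome 13 to 0.80 on chromosome 19. Windows of 10 Mb with at least 20 tested genes numbered 236. The lowest median among them was -1.46, for 43 genes on chromosome 6 between 10 and 20 Mb, where 41 were called higher in A2058 and 2 in A375. SIRT5 lies in that window. The highest was 1.10, for 201 genes on chromosome 19 between 10 and 20 Mb, with 169 called higher in A375 and 13 in A2058. In the knockdown libraries the same windows had medians of -1.28 and 1.26. Copy number was not measured, and the trend with GC content given above was not separated from position.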
